A study of Mus musculus with 22 samples.

Results

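Cytoskeleton genes were followed across peaks of acetylated RNA in the kidneys of diabetic db/db mice and db/m controls. The members were the peaks annotated to actins, tropomyosins and cofilins, actinins, filamins, talins and vinculin, myosins and their light chains and kinases, villin, ezrin and moesin, spectrins and ankyrins, keratins and vimentin, plectin, Dst and Macf1, tubulins, kinesins, dyneins, and podocyte genes such as Nphs1, Podxl and Synpo. Gene symbols, not measured values, chose them. The rule took in 216 of 9857 peaks, from 75 of 4909 genes, and joining the overlapping peaks of a gene left 136 of 6547 regions. Of the 216 peaks, 122 came from the list called in db/db kidneys and 94 from the list called in db/m kidneys. Of the regions, 75 (55.1%) were in both lists, 42 (30.9%) in the db/db list alone and 19 (13.97%) in the db/m list alone, against 48.2%, 25.6% and 26.3% of all regions. Peaks longer than 1000 bases made up 41.7% of the members and 30.1% of all peaks. A mean under 10 RNA-seq reads was found in 55 peaks (25.5%, against 31.8% of all peaks), and 21 genes had no other kind, among them Krt5, Krt14, Krt15, Myh6, Myh7, Dst and Macf1. Among 223 mouse protein-coding genes that match the rule in RefSeq, 74 had a peak under the same symbol. Acta2, Actg1, Vim, Cfl1, Flna, Vcl, Krt18, Krt19, Sptan1 and Tuba1a were among those with no listed peak.

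The study compared N4-acetylcytidine (ac4C) on RNA in 6 db/db mice with 5 db/m mice, their heterozygous controls. Both groups were male according to the study's methods, and the libraries came from kidney. Each animal gave a library of RNA pulled down with an antibody against ac4C (immunoprecipitated RNA, IP) and an RNA-seq library of the RNA before pull-down, which makes 22 libraries. Both copies of the leptin receptor gene are defective in db/db animals, and obesity with type II diabetes follows. The age at collection of these animals is not given in the sources used here, and the db/db allele acts in the whole body, so the kidney is not its only site of action.

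Actin filaments and the myosins that pull on them give kidney cells their shape and contractile force. The brush border of the proximal tubule is a carpet of actin-filled microvilli held to the membrane by ezrin and villin, and podocytes wrap the glomerular capillaries with foot processes whose actin is anchored by nephrin, podocalyxin and synaptopodin. Keratins line tubular epithelium, and microtubules with their kinesin and dynein motors carry cargo and build cilia. Acetylation of cytidine in RNA is placed by the enzyme NAT10 and has been tied to RNA stability and translation.

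All values below are CPM, the reads of a peak scaled to a common total of reads in peaks per library and adjusted for composition between libraries of a kind. A peak was called where edgeR's quasi-likelihood test between genotypes, adjusted over all 9857 peaks, gave an adjusted p under 0.05. Fold changes are log2 values of db/db over db/m, with a standard error. Exact permutation tests of single peaks compare the mean of log2(CPM + 1) of 6 and 5 animals, two-sided, over 462 splits, and cannot give a p below 0.00216.

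The IP libraries held 7577171 to 9862426 reads in peaks in db/db and 9125099 to 10293757 in db/m, and the RNA-seq libraries 3160992 to 3352535 and 3151035 to 3265239. Proximal tubule markers summed to 4958 to 7210 CPM in the RNA-seq of db/db and to 8549 to 9404 CPM in db/m. The gene Slc27a2 held most of this sum, at a mean of 4185 CPM in db/db and 5836 CPM in db/m. Of the 18 proximal tubule peaks, 10 were called lower in db/db, from 7 of 12 regions and 5 genes. The podocyte markers summed to 185 to 294 CPM and 146 to 175 CPM, with 7 of 20 peaks called higher. These shares were 55.6% and 35%, against 5.93% and 5.34% of all peaks called in those directions. In a bulk sample, fewer cells of a type and less RNA per cell cannot be told apart. Lung transcripts summed to 47.2, 33.6, 33.3 and 11.2 CPM in the IP libraries of db/db animals 1 to 4, to at most 1.48 CPM in the other IP libraries and to at most 1.71 CPM in RNA-seq. The IP library of db/m animal 2 was the highest or the lowest of its genotype in 69 of the 86 member regions with a mean of 10 or more RNA-seq reads, and its RNA-seq library in 72 of them (80.2% and 83.7%, against 64.0% and 71.2% of all 3924 such regions). Without that animal the member counts given next were 35 in RNA-seq and 9 in the IP libraries, of which 24 and 6 were among those called with all animals. The counts over all peaks without it are not given here.

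In RNA-seq, 29 of the 216 member peaks were called (13.4%), against 11.3% of all peaks. Of these, 24 rose in db/db (11.1%, against 5.34% of all peaks), among them peaks in Tpm2, Tpm4, Diaph1, Myh9, Myl12a, Myo10, Synpo, Krt7, Krt8, Krt14, Tubb2b and Kifc3. The other 5 fell (2.31%, against 5.93% of all peaks), in Kif12, Myo5b, Myh6 and Dst. The median log2 fold change of the members was 0.02, and that of all peaks -0.01. As peaks of both lists overlap, the 29 peaks stood for 19 of 136 regions, of which 15 rose and 4 fell. Over all peaks, 706 of 6547 regions were called, of which 327 rose and 379 fell. Of the called peaks, 3, in Krt14, Myh6 and Dst, had a mean under 10 reads. The other 26 were 16.1% of the member peaks with a mean of 10 or more reads, against 15.5% of all such peaks. They changed by 0.42 to 1.19 on the log2 scale, and 23 of them rose (14.3%, against 7.23% of all such peaks).

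In the IP libraries, 9 member peaks were called (4.17%), against 6.45% of all peaks. The 8 that rose (3.70%, against 3.07% of all peaks) lay in Tpm2, Diaph1, Myo10, Krt8 and Tubb2b, and the 1 that fell (0.463%, against 3.38% of all peaks) lay in Kif12. Each of the 9 was also called in RNA-seq, and all 29 peaks called in RNA-seq had the same sign in the IP libraries. When 1 animal was left out, this count was 5 (leaving out db/db animal 2, 4 or 5, or animal 3 of db/m) or as high as 14 (leaving out db/db animal 6), and with peaks of at most 1000 bases alone it was 2. DESeq2 called 18.

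The IP signal relative to RNA-seq was compared between genotypes with a term for each animal. No member peak was called, against 0.0304% of all peaks, and the lowest adjusted p among the members was 0.551. At an unadjusted p under 0.05 there were 16 of 216 member peaks and 666 of all 9857, and DESeq2 and limma on the ratio per animal also called 0. Over the member peaks with a mean of 10 or more RNA-seq reads, the median size of this relative change was 0.09 on the log2 scale, and over all such peaks 0.12. Over the 26 well-read peaks called in RNA-seq, the median relative change, taken in the direction of the RNA-seq change, was 0.0053. Changes below are given in both kinds of library.

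**Figure D1:**
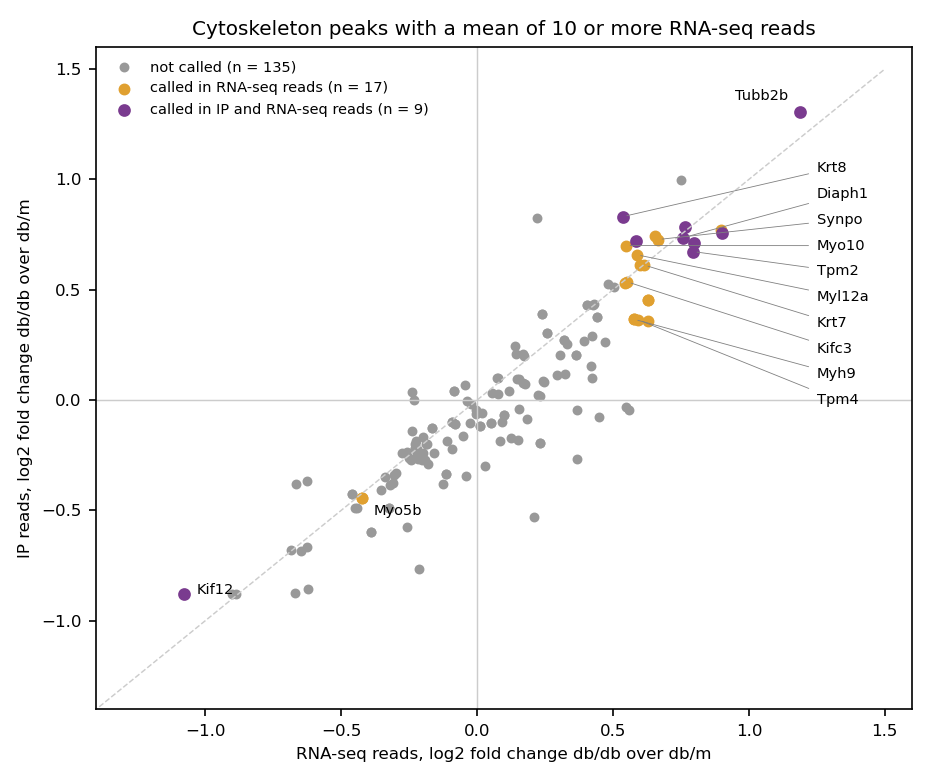
Log2 fold change of db/db over db/m in RNA-seq (horizontal axis) and in IP reads (vertical axis) for the 161 member peaks with a mean of 10 or more RNA-seq reads; colours mark the 135 peaks not called, the 17 called in RNA-seq alone and the 9 called in both, and the line is equality. The called peaks lie near the line and most sit on the side of higher reads in db/db.

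Among actin filament genes, 9 of 23 peaks (39.1%, against 5.34% of all peaks) were higher in RNA-seq and 0 lower, from 5 regions of Tpm2, Tpm4 and Diaph1. Of these, 5 peaks were also higher in the IP libraries (21.7% of the 23, against 3.07% of all peaks), in Tpm2 and Diaph1. The median log2 fold change in RNA-seq over the 23 peaks was 0.17. Leaving out single animals gave an RNA-seq count of 9 each time and IP counts of 4 to 6.

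Tpm2 encodes beta-tropomyosin, a coiled coil that lies along actin filaments and sets which partners bind them. Its most-read peak (chr4:43519052-43523362, GRCm38, starting 221 bases from the 5′ end of the gene) had 109, 137 and 152 CPM as the lowest, median and highest of the 6 db/db animals in RNA-seq and 86.3, 88.2, 74.9, 72.7 and 59.3 CPM in the 5 db/m animals. The same peak had in IP 140, 176 and 236 CPM in db/db and 112, 126, 125, 99.0 and 96.8 CPM in db/m. Every db/db animal lay above every db/m animal in both kinds of library. This gave a log2 fold change of 0.79 ± 0.14 (SE) in RNA-seq with an adjusted p of 0.00057 and 0.67 ± 0.16 in the IP libraries with an adjusted p of 0.0141. A second Tpm2 region near the 3′ end (chr4:43514830-43515009) had 19.99, 22.7 and 24.3 CPM in db/db and 17.0, 17.0, 11.8, 14.4 and 11.7 CPM in db/m in RNA-seq, again with no overlap. It rose by 0.65 ± 0.16 on the log2 scale (adjusted p = 0.00961), and its IP difference of 0.74 ± 0.27 was not called (adjusted p = 0.121).

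Tpm4, a cytoplasmic tropomyosin of stress fibres, rose in RNA-seq. Its long peak (chr8:72135319-72144680) had 154, 194 and 271 CPM in db/db and 120, 147, 136, 162 and 110 CPM in db/m, and the genotypes overlapped, since db/m animal 4 lay above the lowest db/db animal. The log2 fold change was 0.59 ± 0.15 (adjusted p = 0.0118), and in the IP libraries 0.36 ± 0.18 (adjusted p = 0.244). The remaining tropomyosins were not called. Tpm1 (chr9:67032515-67043736) differed by 0.15 ± 0.11 in RNA-seq with an adjusted p of 0.436, and Tpm3 (chr3:90079718-90080488) by 0.01 ± 0.12 with an adjusted p of 0.956.

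Diaph1 encodes a formin that starts and extends unbranched actin filaments, and both of its regions rose. The peak that ends 180 bases before the 3′ end of the gene had 40.5, 46.2 and 61.9 CPM in db/db and 31.4, 19.8, 24.2, 29.7 and 25.7 CPM in db/m in RNA-seq. IP reads gave 44.9, 54.0 and 70.1 CPM against 32.4, 21.0, 25.1, 43.3 and 43.0 CPM. The genotypes did not overlap in either library. The log2 fold changes were 0.90 ± 0.16 in RNA-seq (adjusted p = 0.000714) and 0.76 ± 0.22 in the IP libraries (adjusted p = 0.0438), and the IP call was lost on leaving out any of 6 animals (db/db animals 1, 4 and 5 and db/m animals 1, 2 and 3), with adjusted p up to 0.0984. The shorter db/m-list entry of this region (chr18:37843781-37844050) was called in RNA-seq (0.90) and not in IP (0.77). The longer region that ends 8027 bases before the 3′ end had 83.1, 126 and 147 CPM in db/db and 71.9, 74.0, 67.4, 68.0 and 78.3 CPM in db/m in RNA-seq. It rose by 0.76 ± 0.15 (adjusted p = 0.00164), and in the IP libraries by 0.74 ± 0.17 (adjusted p = 0.0117).

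Actb, the cytoplasmic beta-actin that is often taken as a reference gene, showed no difference that could be told from the spread. Its peak (chr5:142903649-142903738, 534 bases from the 3′ end) had 5.96, 10.97 and 12.6 CPM in the RNA-seq of db/db and 13.5, 5.67, 14.1, 9.89 and 10.8 CPM in db/m. The IP libraries held 7.04, 10.6 and 12.8 CPM in db/db and 13.3, 9.01, 13.8, 9.25 and 13.4 CPM in db/m. The genotypes overlapped in both, and the log2 fold changes were -0.05 ± 0.24 in RNA-seq (adjusted p = 0.921, exact permutation p = 0.896) and -0.16 ± 0.26 in the IP libraries (adjusted p = 0.788, exact permutation p = 0.411). The sign of the RNA-seq value changed without the scaling between libraries, to 0.031. The peak spans 90 bases, a small part of the transcript, so that its CPM is not a level of the whole gene. Actn4, which crosslinks actin in podocytes and epithelium, had a peak 11 bases from its 5′ end (chr7:28962071-28962340) that differed by 0.15 ± 0.16 in RNA-seq (adjusted p = 0.576) and by -0.18 ± 0.20 in the IP libraries (adjusted p = 0.675).

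**Figure D2:**
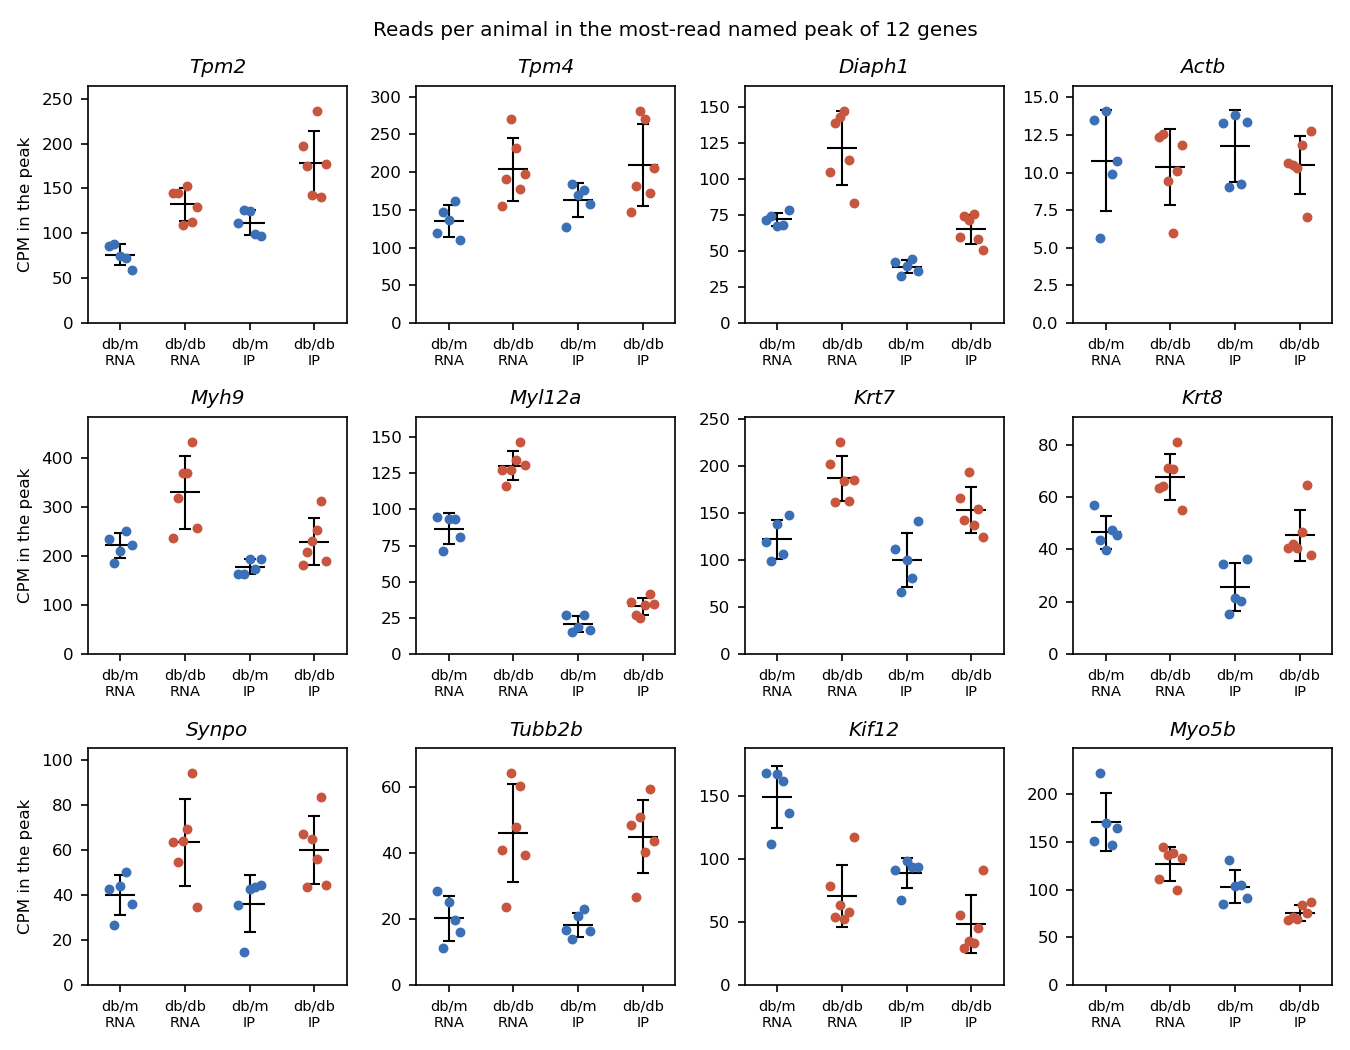
CPM of each animal in RNA-seq and IP libraries at the most-read named peak of 12 cytoskeleton genes, db/m in blue and db/db in red, with the mean and SD of each group. Tpm2 and Diaph1 separate the genotypes in both libraries, Actb in neither, and Kif12 and Myo5b are lower in db/db.

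The proteins that link actin to adhesion sites held no call in 6 peaks, where 2 in RNA-seq and 3 in the IP libraries had an unadjusted p under 0.05 and DESeq2 called 0. The talins differed by -0.23 ± 0.14 at the 3′ end of Tln1 (chr4:43531998-43532912, adjusted p = 0.333) and -0.65 ± 0.32 at Tln2 (chr9:67221463-67227120, adjusted p = 0.226), all in RNA-seq. Without db/db animal 6, Tln2 was called in both kinds of library. Without the scaling between libraries, 2 peaks of the group were called in RNA-seq.

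Among the conventional myosins and their light chains and kinases, 3 of 45 peaks rose in RNA-seq (6.67%, against 5.34% of all peaks). The 3 lay in 2 of 29 regions, and 1 peak fell (2.22%, against 5.93%). In the IP libraries 0 were called, 11 had an unadjusted p under 0.05 and DESeq2 called 1. Myh9, the heavy chain of non-muscle myosin IIA, has variants that cause inherited kidney disease. Its most 3′ region (chr15:77762990-77763878) had 238, 344 and 432 CPM in db/db and 236, 187, 211, 252 and 223 CPM in db/m in RNA-seq, with the lowest db/db animal within the db/m range. It rose by 0.58 ± 0.15 (adjusted p = 0.0145), and differed by 0.37 ± 0.15 in the IP libraries (adjusted p = 0.171). The other 3 regions of Myh9 were not called, with RNA-seq differences of 0.36, 0.22 and 0.12. In exact permutation tests of the log2 ratio between a pair of its regions within animals, the lowest adjusted p was 0.45.

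Myl12a, a regulatory light chain of the same motor, rose in RNA-seq with no overlap. Its peak (chr17:71001985-71002254) had 116, 129 and 146 CPM in db/db and 94.99, 70.9, 93.6, 93.2 and 80.8 CPM in db/m. The difference on the log2 scale was 0.59 ± 0.12 (adjusted p = 0.00232), and in the IP libraries 0.66 ± 0.22 (adjusted p = 0.0929). Myl6, the essential light chain (chr10:128491033-128493546), differed by -0.09 ± 0.14 (adjusted p = 0.708). For Myh10, the heavy chain of non-muscle myosin IIB, values ranged from -0.67 to -0.32 over 7 peaks. None was called by edgeR over all peaks and animals. DESeq2 called Myh10 in RNA-seq, and so did edgeR without db/db animal 4 or without animal 1 or 3 of db/m. With peaks of at most 1000 bases alone, edgeR called Myh10 as well. The smooth muscle heavy chain Myh11 differed by 0.47 ± 0.16 at its most-read region (chr16:14200804-14202159, adjusted p = 0.075). Markers of smooth muscle and pericytes summed to 101 to 146 CPM in db/db and to 75.9 to 150 CPM in db/m in RNA-seq, with none of 8 peaks called.

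Unconventional myosins move cargo along actin, and here both directions occurred. In RNA-seq, 2 of 23 peaks were higher and 2 lower (8.70% each, against 5.34% and 5.93% of all peaks). Each pair of peaks stood for 1 of 12 regions. In the IP libraries 1 peak was higher (4.35%, against 3.07% of all peaks). Myo10 carries cargo to the tips of filopodia. Its region near the 3′ end (chr15:25807926-25808046) had 26.7, 39.7 and 50.3 CPM in db/db and 21.8, 25.5, 26.2, 26.5 and 29.2 CPM in db/m in RNA-seq, with a slight overlap. Its IP values were 24.4, 34.9 and 37.9 CPM in db/db and 14.5, 19.3, 19.4, 21.98 and 24.4 CPM in db/m, where the lowest db/db animal lay just above the highest db/m animal. The log2 fold changes were 0.59 ± 0.16 (adjusted p = 0.0199) and 0.72 ± 0.21 (adjusted p = 0.0438). The IP call was lost on leaving out any of 8 animals (db/db animals 2 to 5 and db/m animals 1 to 4), with adjusted p up to 0.0962, and the RNA-seq call without db/m animal 1 (adjusted p = 0.0544). The longer db/m-list entry of this region (chr15:25807896-25808046) was called in RNA-seq (0.55, adjusted p = 0.0284) and not in IP (0.70, adjusted p = 0.0523). Its RNA-seq call was lost without any of 5 animals (db/db animals 3 and 4 and db/m animals 1, 3 and 4). The upstream region of Myo10 (chr15:25779613-25781147) differed by 0.05 in RNA-seq and -0.10 in the IP libraries. The change of the ratio between the upstream region and the longer entry had an exact permutation p of 0.0238 in RNA-seq and 0.0281 in the IP libraries. Each was 0.338 after adjustment over the 26 comparisons of this kind.

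Myo5b drives recycling endosomes to the apical membrane of epithelial cells, and it fell in RNA-seq. Its peak 51835 bases before the 3′ end had 99.5, 135 and 145 CPM in db/db and 151, 222, 170, 147 and 165 CPM in db/m, with no overlap. This gave a log2 fold change of -0.42 ± 0.13 (adjusted p = 0.0489), and in the IP libraries -0.44 ± 0.15 (adjusted p = 0.0992). The RNA-seq call was lost on leaving out any of 9 animals (all but db/db animal 6 and db/m animal 1), with adjusted p up to 0.134. Proximal tubule markers were lower in the same libraries, as given above, and their part in the result was not tested. Myo6, which works at the base of microvilli, differed by -0.39 ± 0.15 in RNA-seq (chr9:80286393-80292508, adjusted p = 0.101), and Myo7a by -0.44 ± 0.21 (chr7:98077693-98079258, adjusted p = 0.20).

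The brush border and membrane linkers held no call in 8 peaks, with a median log2 fold change of 0.25 in RNA-seq. There, 4 peaks in RNA-seq and 1 in the IP libraries had an unadjusted p under 0.05, and DESeq2 called 0. Ezrin, which ties microvillar actin to the apical membrane, was read over 3421 bases. Its peak (chr17:6739414-6742834) had 2034, 2670 and 3066 CPM in db/db and 2258, 2700, 2456, 2409 and 2473 CPM in db/m in RNA-seq, and the genotypes overlapped throughout. The difference was 0.10 ± 0.12 (adjusted p = 0.634). Villin, which bundles microvillar actin, differed by 0.43 ± 0.16 (chr1:74419578-74421371, adjusted p = 0.097) and 0.40 ± 0.15 (chr1:74426666-74427353, adjusted p = 0.099) in its pair of regions. Without db/db animal 6, all 4 peaks of Vil1 were called in RNA-seq. Moesin differed by -0.30 ± 0.19 (chrX:96157942-96166088, adjusted p = 0.359).

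Of the podocyte genes, Synpo rose in RNA-seq, 1 of 9 peaks (11.1%, against 5.34% of all peaks higher and 11.3% called in either direction). Synpo encodes synaptopodin, which stabilises stress fibres in foot processes. None of the 9 was called in the IP libraries, where 1 had an unadjusted p under 0.05 and DESeq2 called 0. The peak 322 bases before the 3′ end of Synpo had 34.6, 63.9 and 94.2 CPM in db/db and 42.7, 26.8, 44.2, 50.1 and 36.1 CPM in db/m, and the genotypes overlapped. The log2 fold change was 0.67 ± 0.21 (adjusted p = 0.0449, exact permutation p = 0.0325), and in the IP libraries 0.73 ± 0.26 (adjusted p = 0.109). The RNA-seq call was lost without any of 8 animals (all but db/db animals 2 and 6 and db/m animal 4), with adjusted p up to 0.112. Nphs1, which encodes nephrin of the slit diaphragm, had 13.6, 20.3 and 22.5 CPM in db/db and 14.4, 19.8, 12.8, 11.8 and 13.3 CPM in db/m (chr7:30459908-30460147). It differed by 0.42 ± 0.18 (adjusted p = 0.16, exact permutation p = 0.039). Without db/m animal 2, this Nphs1 entry was called in RNA-seq (0.57, adjusted p = 0.0469) and Synpo was not. The shorter db/db-list entry of Nphs1 (chr7:30459967-30460177) was at 0.55 without that animal. It was not called whichever animal was left out (lowest adjusted p = 0.0583). Podxl, the sialomucin podocalyxin, differed by 0.33 ± 0.25 (chr6:31521311-31521490, adjusted p = 0.436). Among the podocyte markers outside the rule, Cdkn1c and Nes rose in RNA-seq, and the podocyte markers' part in the Synpo result was not tested.

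Under the plasma membrane, spectrins form a mesh that ankyrins tie to membrane proteins. The widely expressed Sptbn1 (chr11:30114703-30114883) differed by 0.15 ± 0.15 (adjusted p = 0.525) in RNA-seq, and Ank3 (chr10:70004950-70008802) by -0.20 ± 0.15 (adjusted p = 0.436).

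Keratins of simple epithelium rose. Krt7, a keratin of collecting duct and urothelium, had 162, 185 and 225 CPM in db/db and 119, 99.2, 138, 106 and 148 CPM in db/m in RNA-seq at its long peak (chr15:101414018-101419541), with no overlap. This gave a log2 fold change of 0.61 ± 0.13 (adjusted p = 0.00416), and in the IP libraries 0.61 ± 0.19 (adjusted p = 0.0612). Krt8, a keratin that tubular cells raise on injury, had 55.2, 67.5 and 80.9 CPM in db/db and 56.8, 43.5, 39.9, 47.2 and 45.6 CPM in db/m in RNA-seq (chr15:102003987-102004135), where db/m animal 1 lay within the db/db range. IP reads gave 38.0, 41.3 and 64.6 CPM in db/db and 34.3, 15.5, 21.3, 20.1 and 36.3 CPM in db/m, with no overlap. The log2 fold changes were 0.54 ± 0.13 (adjusted p = 0.0116) and 0.83 ± 0.24 (adjusted p = 0.0455). The IP call was lost without any of 8 animals (db/db animals 1 to 5 and db/m animals 2, 3 and 4), with adjusted p up to 0.115. The partner keratins Krt18 and Krt19 had no listed peak. Of 15 tubular injury genes, 3 had a peak, Krt7, Krt8 and Tgfb1, so that the list adds little beyond the keratins. Aqp2, the water channel of collecting duct principal cells, rose by 1.38 in RNA-seq and 1.56 in the IP libraries, while collecting duct markers summed to 753 to 1113 CPM in db/db and 619 to 939 CPM in db/m, and their part in the Krt7 result was not tested.

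**Figure D3:**
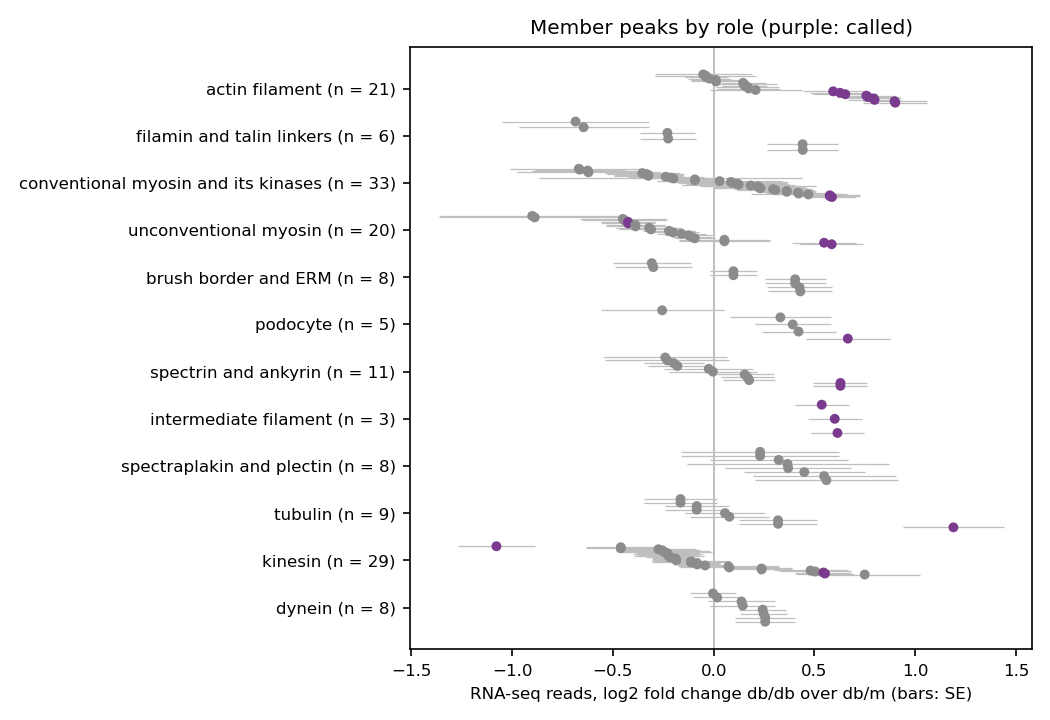
Log2 fold change of db/db over db/m in RNA-seq, with its standard error, for member peaks with a mean of 10 or more RNA-seq reads, grouped by role; purple marks called peaks. Called peaks of the kinesins and unconventional myosins lie on both sides of 0, and those of every other group with a call are above 0. The podocyte and tubulin groups hold 1 called peak each.

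Several keratin, cardiac myosin and spectraplakin peaks were read so seldom that their calls changed with the animals kept. Krt14, a keratin of basal squamous epithelium and myoepithelium, was called in RNA-seq (adjusted p = 0.0202) from 1, 13, 40, 4, 3 and 2 reads in the db/db animals and 0, 0, 0, 0 and 2 reads in db/m (chr11:100204960-100205019). The basal keratins Krt5, Krt14 and Krt15 together had 131 RNA-seq reads in db/db, of which 83 (63.4%) were in animal 3, and 6 reads in db/m. In the IP libraries they had 516 reads in db/db, 264 of them in animal 3, and 82 in db/m, 52 of them in animal 1. The Krt14 call was lost without db/m animal 3 or 4 (adjusted p up to 0.0526) and held without db/db animal 3.

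Myh6 and Myh7, the heavy chains of cardiac muscle, had 102 RNA-seq reads in db/m, 55 of them in animal 2, and 34 in db/db, and the IP libraries held 249 and 219 reads. The Myh6 peak that was called as lower (chr14:54952968-54953088, adjusted p = 0.0448) rested on 1 read in db/db and 9 in db/m, and the call was lost without any of 10 animals and with DESeq2. Dst, a spectraplakin that links intermediate filaments to adhesion sites, was called as lower (chr1:34117522-34135267, -3.64 ± 1.13, adjusted p = 0.0353) with 56 of the 66 db/m reads in animal 2. Without that animal the value was -1.30 (adjusted p = 0.359), and the call was also lost without db/db animal 1, 2, 4, 5 or 6. DESeq2 did not call it, but returned tests for 215 of the 216 member peaks, and no DESeq2 value for Dst is given here. Predicted genes overlap both peaks, Gm52092 and Gm51742. Plec, the plectin gene, had 8 peaks with a mean of 10 or more reads and none called, with RNA-seq differences from 0.23 to 0.56. With db/m animal 2 left out, 5 peaks of the plectin and spectraplakin group were called in RNA-seq, all in Plec.

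**Figure D4:**
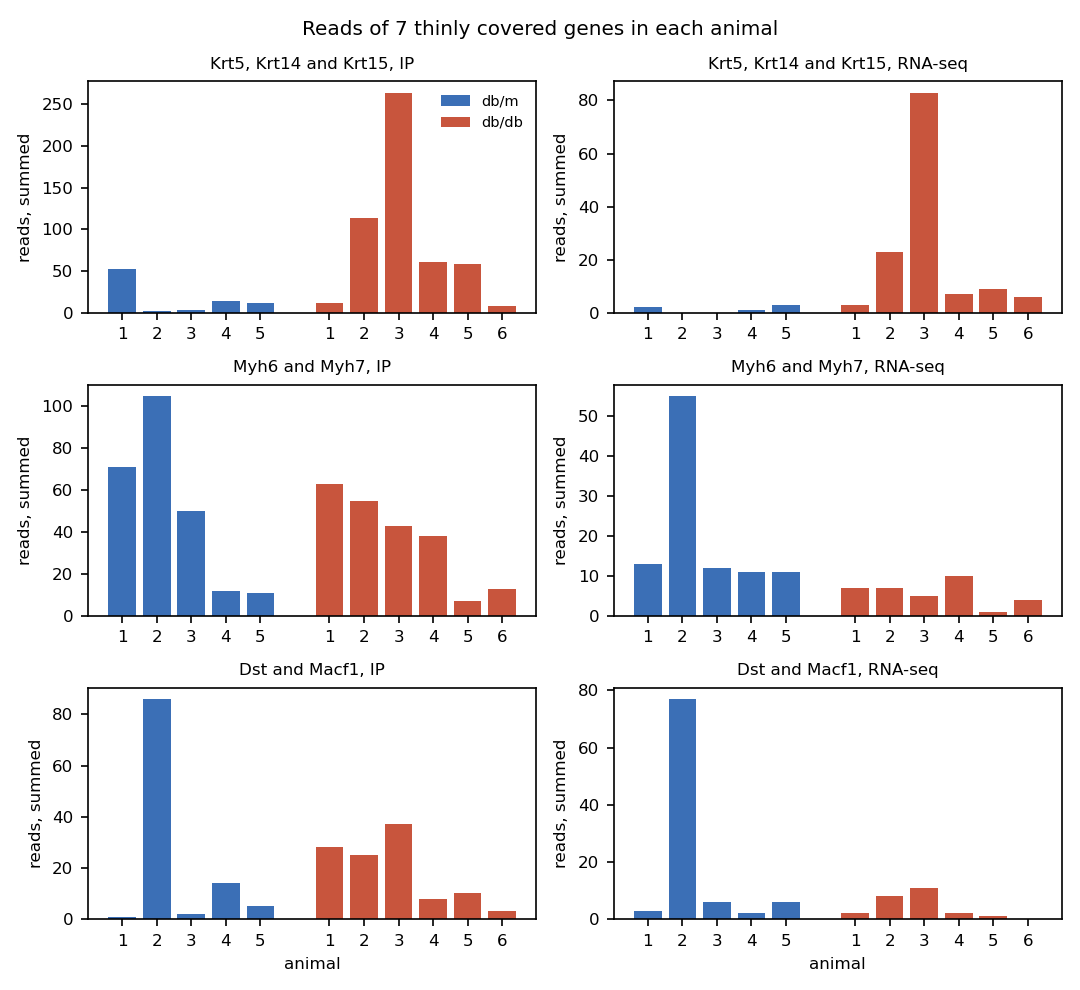
Reads of each animal in RNA-seq and IP libraries summed over the peaks of 3 sets of rarely read genes, the basal keratins Krt5, Krt14 and Krt15, the cardiac heavy chains Myh6 and Myh7, and Dst and Macf1. A single animal holds most of the reads in the genotype with more RNA-seq reads: db/db animal 3 for the keratins, and db/m animal 2 for the others.

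Among 13 peaks of tubulin genes, 1 was called in each kind of library, in Tubb2b, and was higher in db/db. This was 7.69% of the 13, against 5.34% of all peaks called higher in RNA-seq and 3.07% in IP. In either direction, 11.3% and 6.45% of all peaks were called. Tubb2b encodes a beta-tubulin best known from neurons. Its peak (chr13:34127451-34127570, 443 bases from the 3′ end) had 23.7, 44.5 and 64.2 CPM in db/db and 28.6, 11.3, 25.2, 19.8 and 16.2 CPM in db/m in RNA-seq, with a slight overlap. Its IP values were 26.7, 46.1 and 59.4 CPM in db/db and 16.7, 13.9, 21.1, 23.0 and 16.5 CPM in db/m, with no overlap. The log2 fold changes were 1.19 ± 0.25 (adjusted p = 0.00333) and 1.30 ± 0.23 (adjusted p = 0.00115), and both calls held whichever animal was left out. The peak was listed in db/m alone although its reads were higher in db/db. Tubb2a is a near-identical neighbour with no listed peak, so the share of reads that belongs to Tubb2b is uncertain. In the same group Tubb4b (chr2:25222249-25222485) and Tuba4a (chr1:75215603-75215842) differed by -0.08 ± 0.16 (adjusted p = 0.783) and -0.16 ± 0.18 (adjusted p = 0.596) in RNA-seq.

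Kinesins walk along microtubules, and here Kif12 fell and Kifc3 rose in RNA-seq. Of 39 peaks, 1 was lower (2.56%, against 5.93% of all peaks) and 2 were higher (5.13%, against 5.34%). The 2 higher peaks stood for 1 of 25 regions. The group also holds Kif1bp, a kinesin-binding protein and no motor. Kif12 is a kinesin of kidney and liver epithelium, linked to cystic disease. Its peak (chr4:63167488-63167915), listed in db/m alone, had 52.3, 60.8 and 117 CPM in db/db and 168, 112, 168, 162 and 137 CPM in db/m in RNA-seq. IP reads gave 29.2, 40.2 and 91.1 CPM in db/db and 91.4, 67.7, 98.5, 93.7 and 93.8 CPM in db/m. The highest db/db animal in both was animal 6, and without it the IP log2 fold change was -1.14. With all animals the log2 fold changes were -1.08 ± 0.19 in RNA-seq (adjusted p = 0.000698) and -0.88 ± 0.25 in the IP libraries (adjusted p = 0.0417). The RNA-seq call held whichever animal was left out, and the IP call was lost without any of 9 animals (all but db/db animal 6 and db/m animal 2), with adjusted p up to 0.103.

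Kifc3, a motor that moves toward the minus end of microtubules and serves epithelial junctions, had 43.7, 48.0 and 67.1 CPM in db/db and 36.3, 35.6, 28.8, 32.9 and 41.8 CPM in db/m in RNA-seq (chr8:95108598-95109206), with no overlap. The log2 fold change was 0.55 ± 0.14 (adjusted p = 0.0164), and in the IP libraries 0.54 ± 0.22 (adjusted p = 0.172). The RNA-seq call was lost without db/m animal 3 or 4 (adjusted p up to 0.0596). The ciliary motor subunits Kif3a and Kif3b differed by -0.19 ± 0.12 (chr11:53584350-53594350, adjusted p = 0.36) and -0.25 ± 0.24 (chr2:153317294-153320303, adjusted p = 0.521) in RNA-seq. Kif1c, the kinesin with the most regions read here, differed by -0.08 ± 0.11 (chr11:70728820-70729240, adjusted p = 0.687). The 8 dynein peaks held no call by edgeR or DESeq2 in either kind of library, and 2 in RNA-seq and 0 in the IP libraries had an unadjusted p under 0.05. Their RNA-seq differences ran from -0.0033 to 0.26, and the heavy chain Dync1h1 differed by 0.26 ± 0.15 (chr12:110666735-110666945, adjusted p = 0.308).

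With the 4 db/db IP libraries that held lung transcripts left out, db/db animals 5 and 6 were compared with the 5 db/m animals. The 9 called peaks had been chosen with these same animals, so their values here are a description. Their log2 fold changes were 0.39 to 1.5 in size, and after adjustment 1 remained called, Tubb2b (1.5 ± 0.29, adjusted p = 0.0165). Kif12 differed by -0.39 ± 0.29, the smallest of the 9, with the high animal 6 as 1 of the 2 kept. The part of the lung transcripts in the IP results was not tested.

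Regions of the same gene differed in the ratio of pulled-down RNA to RNA-seq. Since peaks were called on IP against the RNA before it, these ratios are a description. Over 86 regions with a mean of 10 or more RNA-seq reads, the log2 ratio of IP to RNA-seq CPM, as the mean over 11 animals, had a median of 0.06, quartiles of -0.50 and 0.53, and a range from -1.996 to 1.93. Over all 3924 such regions the median was 0.01. The highest ratio was in Tpm3 (chr3:90079689-90080488), with 1.93 ± 0.16 (SD over animals), while the neighbouring region of the same gene (chr3:90080607-90091050) was at -0.02 ± 0.12. The lowest was in Myl12a, with -1.996 ± 0.21. Regions of 1 gene also differed in Kif1c, with 1.03, 0.84, -0.47 and -1.11, in Myo10, with 1.28 and -0.36, and in Diaph1, with 0.23 at the 3′ end and -0.87 upstream. Plec regions had ratios of 0.93 to 1.49. The spread over animals had a median SD of 0.21.

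**Figure D5:**
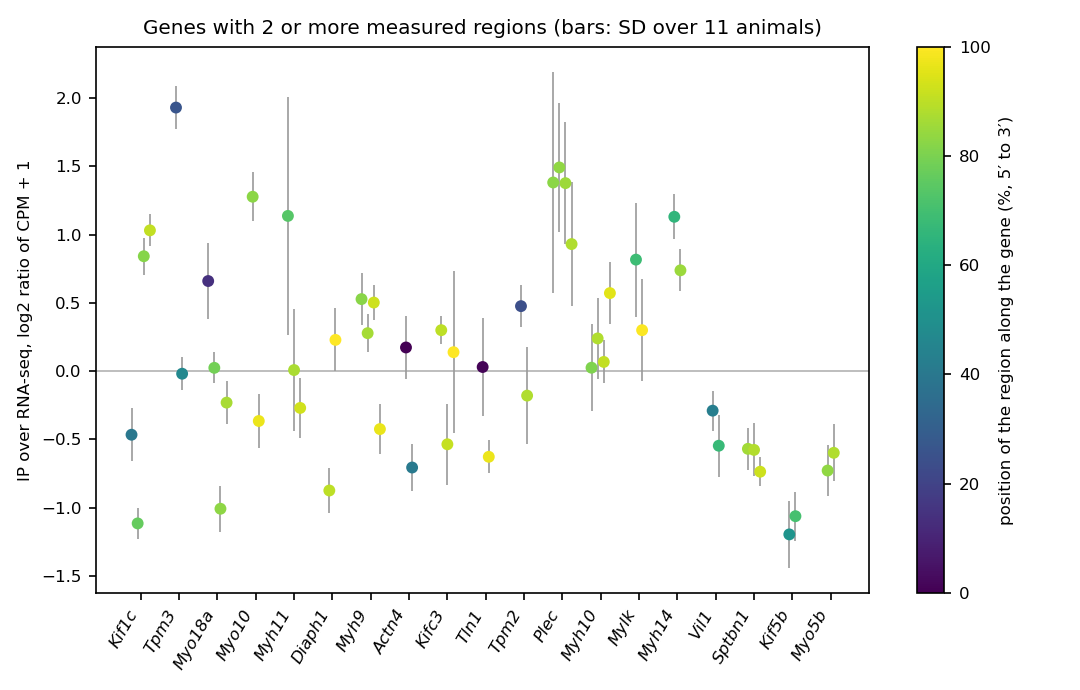
Log2 ratio of IP to RNA-seq CPM, mean and SD over 11 animals, for each region of the cytoskeleton genes with at least 2 regions read; colour gives the position along the gene from 5′ to 3′. Kif1c and Myo10 hold regions above and below 0 within 1 gene, and the pair of Tpm3 regions lies at 1.93 and -0.02.

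In CPM per kilobase of peak, the RNA-seq level was 947 (median over animals) for Tubb4b, 815 for Tuba4a and 650 for Kif1c. Their ranges over animals (626 to 1217, 513 to 1075 and 545 to 768) overlapped, so that their order is not beyond the spread. Such a value is that of the peak and not of the whole gene, as Myo18a had 2982 over a peak of 61 bases and 94.03 over another region of 210 bases.

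Genes that regulate actin but lie outside the rule were given the same tests. Of 65 listed genes, 32 had a peak, and of their 82 peaks 9 were called in RNA-seq, all higher. The 9 were 10.98% of the 82, against 5.34% of all peaks called higher and 11.3% called in either direction. The median log2 fold change over the 82 was 0.03. The 9 lay in 4 of 48 regions, in Tagln2, Epb41, Epb41l1 and Lmod1. Tagln2, a transgelin that binds actin filaments, rose by 1.16 ± 0.22 in RNA-seq (chr1:172505923-172506691, adjusted p = 0.0012) and by 0.84 ± 0.22 in the IP libraries (adjusted p = 0.025), the only gene of the list called in both.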

How the data were processed

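The authors sequenced kidney RNA from 6 db/db mice and 5 db/m mice before and after pull-down with an ac4C antibody, on fragments of poly(A) RNA. The deposited table holds read counts per peak and library, not normalized, with peaks called by the authors per genotype and not per animal, so a peak can be listed once for each genotype and its reads then enter both entries. It also gives the fold enrichment and the p-value and FDR of each peak from the authors' caller, a ratio of IP to the RNA before it, which entered no test. Further columns of the authors hold their own genotype comparison and were not used. The build was GRCm38 according to the submitters' processing notes, and the aligner, peak caller, counting tool and strand setting are not given in the sources used here. Start positions were raised by 1, and gene ends were taken from a RefSeq table of GRCm38.p6.

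Counts over all 9857 peaks were scaled by TMM and tested with the quasi-likelihood test of edgeR 4.0.16 (R 4.3.3), for IP and RNA-seq separately, with Benjamini-Hochberg adjustment over all peaks. IP relative to RNA-seq was fitted as an interaction with a term for each animal. DESeq2 1.42.0, limma 3.58.1, library sizes without TMM, a filter on low counts, 1 peak per group of overlapping peaks, peaks of at most 1000 bases, a replicate block and leaving out each animal were alternatives. Joined regions, a minimum of 10 mean reads and IP without db/db animals 1 to 4 were added after seeing the data. The procedure was tested on simulated data. The animals are separate mice, and p-values measure the spread between them. A count of 0 allows up to 3 reads, or 0.305 to 0.362 CPM in IP and 0.857 to 0.981 CPM in RNA-seq, for counting error alone. Replicates of a genotype correlated at 0.962 to 0.994, and none were identical. Of the member peaks, 19 share all 22 counts with another peak.

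The members, role groups and marker lists were chosen with earlier results of these data known. Peaks were named where they belonged to Actb or a podocyte gene, were called in any comparison, or had the most reads per base of their role group in IP or RNA-seq. Genes mentioned beyond these were chosen after their values were seen. The own values of some members are not reported here, and counts over members include them.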

Additional observations from a re-analysis of the deposited data

Results flagged for a closer look

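In 180 sets of animals of 1 genotype, library kind and named peak, 22 held an animal farther from the rest than Dixon's 95% critical value, where about 9 would come by chance at 1 in 20. The sets are not independent, since an animal's library enters many of them. Of the 22, 12 were db/m animal 2.

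In RNA-seq, db/m animal 2 was the highest of its genotype at Dst (17.6 CPM), a peak of Nphs1 (18.9 CPM), Myo18a (223 CPM), 2 Plec peaks (12.3 and 24.9 CPM) and Actn4 (63.0 CPM). In the IP libraries it was the highest at Dst (8.06 CPM) and Actn4 (84.4 CPM), and the lowest at Myl6 (607 CPM), Dync1h1 (42.5 CPM), the 3′ peak of Synpo (14.7 CPM) and Kif12 (67.7 CPM).

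In the IP libraries of db/db, animal 5 was the highest at Krt8 (64.6 CPM) and the lowest at the shorter Actb peak (3.80 CPM), and animal 3 was the highest at Dst (2.64 CPM). In those of db/m, animal 5 was the highest at both Kifc3 peaks (35.9 and 36.6 CPM), and animal 1 at a small upstream Synpo peak (0.814 CPM, 8 reads) and at Krt14 (3.97 CPM, 39 reads). In RNA-seq, Krt14 was highest in db/db animal 3 (11.4 CPM, 40 reads) and, within db/m, in animal 5 (0.634 CPM, 2 reads), and Myh6 in db/db animal 2 (0.300 CPM, 1 read).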

How the results depend on the processing

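Of 1466 repeats of 90 named values under an alternative, 1303 kept their direction and side of the threshold, 86 lost and 34 gained a call, and 43 changed sign. The IP count of 9 member peaks was 18 with DESeq2, 2 with peaks of at most 1000 bases, 1 with a log2 fold change beyond 1, 58 at an unadjusted p under 0.05, 1 with db/db animals 5 and 6 alone and 5 to 14 with 1 animal left out. The RNA-seq count of 29 was 19 with 1 peak per group of overlapping peaks, with joined regions and with peaks of at most 1000 bases, where fewer peaks were tested, 5 with a log2 fold change beyond 1, 63 at an unadjusted p under 0.05 and 22 to 40 with 1 animal left out. The relative comparison had 0 calls under every alternative with adjusted p, and 16 at an unadjusted p under 0.05. Over all 9857 peaks, an unadjusted p under 0.05 was found in 2089 in IP and 2413 in RNA-seq. For the other alternatives, and for the replicate block below, the counts over all peaks are not given here. A change in a member count is thus not shown to be particular to the members.

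The labels do not say that equal replicate numbers pair animals. Deviations of animals with the same number correlated at -0.33 to 0.45 in RNA-seq and -0.23 to 0.17 in IP, and 0 of 5 db/m animals lay closest to their own number in either. With a replicate block the counts were 16 in IP and 59 in RNA-seq, and these values changed sign: Dst 0.61, Tubb4b -0.064, a Plec peak 0.15 and the small Synpo peak 0.19 in IP, and Tpm3 -0.021 in RNA-seq.

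Other changes of sign were at values near 0 or rarely read peaks, none called with all animals. Without TMM they were Actb 0.031 and 0.0397 in RNA-seq, and Sptbn1 0.058, a Plec peak 0.074 and Ezr 0.022 in IP, and with peaks of at most 1000 bases Tpm3 in RNA-seq at -0.0022. With 1 animal left out, RNA-seq values ran from -0.21 to 0.064 and -0.20 to 0.073 (Actb), -0.061 to 0.0495 (Tpm3), -0.19 to 0.021 (Tubb4b) and -0.20 to 0.47 (Podxl). IP values ran from -0.26 to 0.0029 (Tuba4a), -3.30 to 1.96 (Dst), -0.071 to 0.20 (Tubb4b), -0.11 to 0.045 (Sptbn1), -0.14 to 0.66 and -0.26 to 0.37 (Plec), -0.13 to 0.049 (Ezr), -0.26 to 0.036 (Actn4) and -1.62 to 2.66 (Synpo). The causes were not tested. Depth limits the 55 member peaks with a mean under 10 RNA-seq reads.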

Other observations

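Markers of other cell types were summed over their regions in the same libraries. Adipocyte-list genes had 3 peaks higher and 1 lower of 6 in RNA-seq (50% and 16.7%, against 5.34% and 5.93% of all peaks), all in Pck1 and Lpl. Their sums were 3346 to 10597 CPM in db/db and 1290 to 2308 CPM in db/m. Pck1, a gluconeogenic enzyme, is also made by proximal tubule cells, and Cfd, Cidec, Fabp4, Lep and Retn had no listed peak. The lists for thick ascending limb and distal tubule, endothelium, fibroblasts, leukocytes and skeletal muscle held 0 called peaks in either kind of library by edgeR. At an unadjusted p under 0.05 in RNA-seq, these held 0, 3, 1, 0 and 0 peaks.

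In IP, 3 of 7 lung peaks were higher (42.9%, against 3.07% of all peaks), in Scgb1a1, Sftpa1 and Sftpc. There, 6 of 18 proximal tubule peaks were lower (33.3%, against 3.38% of all peaks). The tubular injury list summed to 227 to 300 CPM in db/db and 145 to 195 CPM in db/m in RNA-seq.

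The region of Myo5b with the call and its other region differed in their change, with the log2 ratio between them at -0.20 in db/db relative to db/m in RNA-seq (exact permutation p = 0.039, adjusted p = 0.338 over 26 comparisons), a pair chosen after its values were seen.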
